A study of Danio rerio with 4 samples.

Results

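The genes described here encode splicing factors and heterogeneous nuclear ribonucleoproteins (hnRNPs), whose mRNA was measured in whole zebrafish embryos at about 24 hours after fertilization. They are the 77 of 32313 annotated genes whose symbol begins with srsf, hnrnp, snrp, lsm, sf3a, sf3b, u2af or prpf. They fall into 12 SR genes (srsf), 23 hnRNP genes, 22 core snRNP genes (10 snrp and 12 lsm), 10 U2-associated genes (2 sf3a, 5 sf3b and 3 u2af) and 10 PRPF genes. The study asked which transcripts rely on eIF3h, a subunit of a translation initiation complex, to be found on polysomes, which are mRNAs carrying several ribosomes. It has 4 groups of 1 library each: eif3ha morphant polysomal mRNA, wild-type polysomal mRNA, eif3ha morphant total mRNA and wild-type total mRNA. Morphants carry an injected morpholino, which is an antisense oligonucleotide that blocks translation or splicing of its target. Each polysomal library pooled 300 embryos and each total library pooled 50. The labels name no strain and no embryos injected with a control morpholino, so injection itself and loss of eIF3h cannot be told apart. In such pooled whole embryos, fewer cells of a type and less of an mRNA per cell cannot be told apart either.

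Splicing removes introns from pre-mRNA in the spliceosome, which is built on small nuclear ribonucleoproteins (snRNPs), each made of a small nuclear RNA and its proteins. Sm proteins form a ring on the U1, U2, U4 and U5 RNAs, LSM2 to LSM8 form a ring on U6 RNA, the SF3a and SF3b complexes and U2AF bring U2 to the branch site, and PRPF proteins act in the U4/U6.U5 particle and in catalysis. SR proteins bind exonic enhancers and favour use of nearby splice sites, while hnRNPs coat nascent RNA and often hold splice sites back, and both families also take part in mRNA export, translation and decay. The roles given here are those of the human or yeast orthologues. Zebrafish embryos with mutations in core spliceosome genes are known to lose cells of the early nervous system.

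Values are RPKM, the reads of a gene for its model length in kilobases, and relative to all mapped reads, as the authors deposited them. Depth was 22001386 mapped reads in morphant polysomal, 15769466 in wild-type polysomal, 21021429 in morphant total and 24939985 in wild-type total mRNA. These depths, and the reads behind 74 of the 77 members, were worked back from the steps in which low values move. HNRNPA1L2, HNRNPAB and the SRSF1 gene ENSDARG00000057691 have RPKM values and no recovered reads. Differences are log2 ratios with a pseudocount of 0.5 RPKM, so those of low genes are understated. Intervals in brackets are exact 95% Clopper-Pearson intervals of the read ratio (for polysomal minus total, a normal approximation), and they cover counting error only. In the polysomal pair the spread is wider than counting gives: of 1015 genes with 2 reads over both libraries, 22% had 1 read in each, where counting at these depths gives 48.6%. In the total pair it was 46% of 842 genes, where counting gives 49.6%, so intervals that use polysomal libraries are too narrow. With 1 library in a group, no difference here was tested against replicate spread. EIF3H (ENSDARG00000036116), the gene with the symbol of the targeted family, had 7.6 RPKM in morphant polysomal, 6.33 in wild-type polysomal, 5.92 in morphant total and 6.24 in wild-type total mRNA. A morpholino need not lower the mRNA of its target, so these levels do not check the knockdown.

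The splicing genes were abundantly expressed: 71 of the 77 had at least 3 RPKM in all 4 libraries, and their summed RPKM was 1.19% of the library's sum in morphant polysomal, 1.18% in wild-type polysomal, 1.31% in morphant total and 1.54% in wild-type total mRNA. The median member stood at 47.6 RPKM in morphant polysomal, 57.1 in wild-type polysomal, 48.6 in morphant total and 49.8 in wild-type total mRNA. The median of all genes in the same libraries was 0.395, 0.54, 1.05 and 0.99 RPKM. The hnRNP genes led in total mRNA, with a summed 2597 RPKM in morphant and 3247 in wild-type embryos. The core snRNP genes led in morphant polysomal mRNA, with a summed 2973 RPKM against 1310 in morphant total mRNA. They also led in wild-type polysomal mRNA, with 3620 RPKM against 1556 in wild-type total mRNA. Across the polysomal and total fractions the order of the hnRNP and core snRNP classes was therefore exchanged in both conditions. The SR genes summed to 833.6 RPKM in morphant polysomal, 937.6 in wild-type polysomal, 611.8 in morphant total and 673.7 in wild-type total mRNA. All genes summed to more RPKM in the polysomal libraries (614738 morphant, 785147 wild type) than in the total ones (418782 and 426870). As shares of these sums, SR genes were lower in polysomal than total mRNA, at 0.136% against 0.146% in the morphant and 0.119% against 0.158% in wild type. Core snRNP genes were higher, at 0.484% against 0.313% in the morphant and 0.461% against 0.365% in wild type.

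The most abundant member was hnrnpa0l (ENSDARG00000036161), of the hnRNP A0 family, whose proteins bind AU-rich elements. It had 958 RPKM in morphant polysomal, 1445 in wild-type polysomal, 674 in morphant total and 984.5 in wild-type total mRNA, and was lower in the morphant in both fractions. SNRPB (ENSDARG00000011125), which encodes the Sm proteins B and B′, led the core snRNP genes with 459 RPKM in morphant polysomal, 719 in wild-type polysomal, 288 in morphant total and 387 in wild-type total mRNA. SRSF1 (ENSDARG00000057691) led the SR genes, U2AF1 (ENSDARG00000015325), the subunit of U2AF that reads the AG of the 3′ splice site, led the U2-associated genes in total mRNA (on polysomes SF3B5 was higher in both conditions), and PRPF19 (ENSDARG00000015239), a ubiquitin ligase needed for spliceosome activation, led the PRPF genes. Their wild-type total levels were 125.5, 145 and 129.5 RPKM.

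Of the other 6 members, 5 stayed below 3 RPKM in every library: LSM11, LSM14B, hnrnph3, PRPF3 and PRPF4. LSM11, a subunit of the U7 snRNP that processes histone pre-mRNA, had no read in any of the 4. PRPF3 and PRPF4, which act together in the U4/U6.U5 particle, had between 0.362 and 0.448 RPKM and between 0.21 and 0.797 RPKM over the 4 libraries. The sixth, hnrnpa3, had 1.03 RPKM in morphant polysomal and 4.44 in wild-type polysomal mRNA, with 0.892 in morphant total and 2.6 in wild-type total mRNA. It therefore counts only where wild-type polysomal mRNA is compared, and it counts there because it was high in that library. A gene was taken as above the floor in a comparison with at least 3 RPKM in 1 of its libraries. The 77 genes carry 70 distinct symbols, since several are duplicated in zebrafish, and reads of 36 bases may be shared between near-identical copies, so that values of single copies are less certain than those of the class.

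Within each condition, polysomal over total mRNA set the classes apart, and core snRNP genes stood above the others. Their median log2 ratio was 1.29 in the morphant and 1.29 in wild type, which is 2.44-fold and 2.45-fold, while the medians of all genes above the floor were -0.70 and -0.71. Above the floor were 11951 genes in the morphant and 12072 in wild type, while 8261 genes had 3 RPKM in either polysomal library. Genes above the floor through total mRNA alone lie below 0 by that rule, whereas 71 of 77 members had 3 RPKM in every library. Medians and shares of all genes matched for level were not computed. The SR genes had medians of 0.42 in the morphant and 0.27 in wild type, and the hnRNP genes -0.28 in the morphant and -0.11 in wild type. Over all members the median was 0.22 in the morphant (71 genes) and 0.25 in wild type (72 genes). In the morphant 17 of 71 members were at least 2-fold higher on polysomes and 7 at least 2-fold lower, where 6.81% of all genes were that much higher, 41.1% that much lower and 47.9% either. In wild type 18 of 72 were higher and 7 lower, where 10.5% of all genes were higher, 42.7% lower and 53.2% either. Of the 17 members that were higher in the morphant 14 were core snRNP genes, and 15 of the 18 in wild type. That class goes by symbol (snrp or lsm) and not by place in a snRNP. These counts include LSM1 in both conditions and LSM12 in wild type, which lie outside the LSM2 to LSM8 ring.

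**Figure D1:**
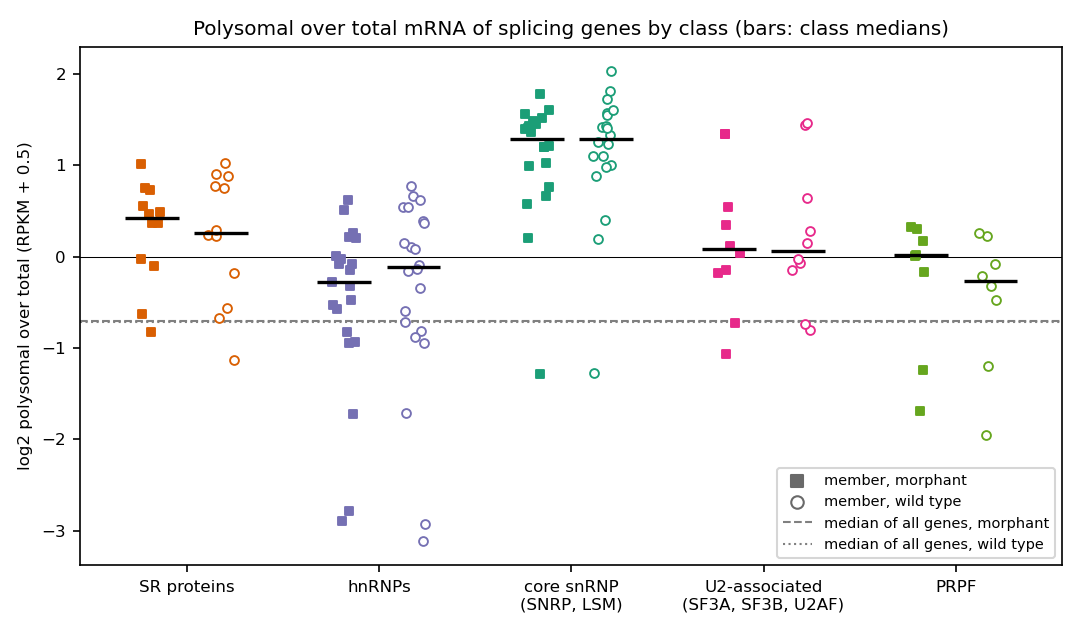
Log2 polysomal over total RPKM (after adding 0.5) of each member above the floor, by class, with filled squares for the morphant and open circles for wild type. Black bars are class medians, and the dashed and dotted grey lines are the medians of all genes (-0.70 and -0.71). The core snRNP median lies at 1.29 in both conditions (1.06 and 0.86 without the 50 most abundant genes in the scaling), and lsm14aa alone of that class lies below 0, while hnrnpul1l and 1 HNRNPU gene lie near -3.

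These ratios compare shares of each library, so their level depends on how the libraries are scaled, while differences between classes do not. With libraries scaled to their summed RPKM without the 50 most abundant genes, all genes had medians of -0.92 in the morphant and -1.11 in wild type, and the members -0.02 and -0.19. Under that scaling 12 members were 2-fold higher and 11 lower in the morphant, where 4.4% of all genes were higher and 47.5% lower. In wild type 8 were higher and 15 lower, where 6.14% of all genes were higher and 53.4% lower. With upper-quartile scaling the counts were 27 higher and 4 lower in the morphant, where 14.8% of all genes were higher and 30.9% lower, and 29 higher and 4 lower in wild type, where 17.8% were higher and 33.3% lower. The members' median was between 0.91 and 0.99 above that of all genes under the 4 scalings and in both conditions. A scaling shifts all genes of a library nearly alike, so this gap could hardly move and is no check on the result. The median of all genes here includes the genes above the floor through total mRNA alone. The SR median was 0.87 below the core snRNP median in the morphant and 1.03 below it in wild type, and the hnRNP median 1.57 below it in the morphant and 1.40 below it in wild type.

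The genes of the U6 ring, LSM2 to LSM8, were at least 2-fold higher on polysomes for 7 of 7 in the morphant and 7 of 7 in wild type, with median log2 ratios of 1.49 and 1.43. Of all genes, 6.81% in the morphant and 10.5% in wild type were that much higher. Without the 50 most abundant genes in the totals, 5 of 7 in the morphant and 3 of 7 in wild type passed 2-fold, all 7 staying above 0. Under that scaling 4.4% and 6.14% of all genes were 2-fold higher, and 22% and 20.7% were above 0. LSM2 (ENSDARG00000070867) had 102 RPKM in morphant polysomal against 29.2 in morphant total mRNA, and 109 in wild-type polysomal against 26.1 in wild-type total mRNA. The ratios of 1.78 in the morphant and 2.04 in wild type were the highest of all members. LSM8 (ENSDARG00000091656), the ring's nuclear-specific subunit, had 238.5 RPKM in morphant polysomal against 80.4 in morphant total mRNA, and 298 in wild-type polysomal against 101 in wild-type total mRNA, log2 ratios of 1.56 and 1.55. LSM1 (ENSDARG00000043177), which replaces LSM8 in the cytoplasmic ring that promotes mRNA decapping, stood at 22.9 RPKM in morphant polysomal against 8.33 in morphant total mRNA, and 26.6 in wild-type polysomal against 8.64 in wild-type total mRNA, a lower level with similar log2 ratios of 1.41 and 1.57. Both rings thus had high polysomal shares.

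The Sm ring was represented by 6 genes (SNRPB, SNRPD1, SNRPD2, 2 copies of SNRPD3 and SNRPE), and 5 of 6 were at least 2-fold higher on polysomes in each condition, with median log2 ratios of 1.32 in the morphant and 1.18 in wild type. Of all genes, 6.81% in the morphant and 10.5% in wild type were that much higher. Without the 50 most abundant genes these counts were 3 and 2 of 6, and all 6 stayed above 0. With that scaling 4.4% and 6.14% of all genes were 2-fold higher, and 22% and 20.7% were above 0. SNRPD3 (ENSDARG00000076283) had 143 RPKM in morphant polysomal against 49.5 in morphant total mRNA, and 191 in wild-type polysomal against 57.4 in wild-type total mRNA, log2 ratios of 1.52 and 1.73. SNRPE (ENSDARG00000033175) had 382 RPKM in morphant polysomal against 141 in morphant total mRNA, and 432 in wild-type polysomal against 180.1 in wild-type total mRNA, log2 ratios of 1.43 and 1.26. The abundant SNRPB was the exception short of 2-fold, at 0.67 and 0.89. The proteins specific to U1 or U2 snRNP spread more widely. SNRPC, the U1 zinc-finger protein that stabilises pairing with the 5′ splice site, had log2 ratios of 1.37 in the morphant and 1.41 in wild type. SNRPA1, a U2 protein, had 0.99 and 0.98, its U2 partner SNRPB2 0.58 and 0.40, and the U1 protein SNRPA 0.20 and 0.19. The lowest core snRNP gene, and the only 1 of 20 below 0 with the deposited scaling, was lsm14aa (ENSDARG00000006600), whose human orthologue LSM14A is a P-body protein that represses translation and is no snRNP subunit. It had 6.31 RPKM in morphant polysomal against 16.1 in morphant total mRNA, and 6.17 in wild-type polysomal against 15.6 in wild-type total mRNA, log2 ratios of -1.28 and -1.27.

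Among SR genes the polysomal over total ratios ran between -0.82 for SRSF5 and 1.02 for SRSF3 in the morphant, and between -1.13 for SRSF6 and 1.03 for SRSF3 in wild type. In each condition 8 of 12 were above 0, where 27.9% of all genes were in the morphant and 30.2% in wild type. Without the 50 most abundant genes the SR medians were 0.19 and -0.17, with 8 of 12 above 0 in the morphant and 5 of 12 in wild type. Under that scaling 22% and 20.7% of all genes were above 0. SRSF3, an SR protein that also acts as an adaptor in mRNA export, was high in both of its copies. The copy ENSDARG00000025397 had 128 RPKM in morphant polysomal against 63.1 in morphant total mRNA, and 112 in wild-type polysomal against 65 in wild-type total mRNA. Its log2 ratios were 1.02 and 0.78, and those of the copy ENSDARG00000059360 were 0.73 and 1.03.

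Among hnRNP genes 15 of 21 in the morphant and 12 of 22 in wild type lay below 0 with the deposited scaling. Of all genes 72.1% in the morphant and 69.8% in wild type did. With upper-quartile scaling the hnRNP medians were above 0, at 0.21 and 0.35. None of the hnRNP genes was 2-fold higher on polysomes with the deposited scaling, where 6.81% and 10.5% of all genes were. With upper-quartile scaling 2 in the morphant and 4 in wild type were, where 14.8% and 17.8% of all genes were. The lowest 3 were of the hnRNP U family, whose proteins carry a SAP domain and bind DNA and RNA. hnrnpul1l (ENSDARG00000079780) had 14.2 RPKM in morphant polysomal against 109 in morphant total mRNA, and 13.2 in wild-type polysomal against 119 in wild-type total mRNA, log2 ratios of -2.90 and -3.12. HNRNPU (ENSDARG00000015206) had 3.4 RPKM in morphant polysomal against 26.4 in morphant total mRNA, and 4.62 in wild-type polysomal against 38.6 in wild-type total mRNA, log2 ratios of -2.79 and -2.93. hnrnpul1 (ENSDARG00000040564) followed with -1.72 and -1.71. At the other end, HNRNPK (ENSDARG00000007034), a KH-domain protein that binds C-rich RNA, had 21.6 RPKM in morphant polysomal against 13.9 in morphant total mRNA, and 23.9 in wild-type polysomal against 13.7 in wild-type total mRNA. Its log2 ratios were 0.62 and 0.78, the highest of the hnRNP genes in both conditions.

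The U2-associated genes split by subunit. The small SF3b subunits SF3B5 (ENSDARG00000016855) and SF3B6 (ENSDARG00000009753), which in human cells lies at the branch site, had log2 polysomal over total ratios of 1.35 and 1.35 in the morphant and 1.44 and 1.46 in wild type. SF3B1 (ENSDARG00000056138), the large scaffold of the same complex, had 24.7 RPKM in morphant polysomal against 52.4 in morphant total mRNA, and 29.3 in wild-type polysomal against 49.5 in wild-type total mRNA, log2 ratios of -1.07 and -0.74. SF3A1, the large SF3a subunit, was also low at -0.73 and -0.80. Subunits of 1 complex thus stood on either side of 0 with the deposited scaling. Against all genes' medians, SF3B1 was below the -0.70 of the morphant and near the -0.71 of wild type. Of the PRPF genes, PRPF8 (ENSDARG00000026180), the protein at the centre of the catalytic spliceosome, was lowest. It had 16.1 RPKM in morphant polysomal against 53 in morphant total mRNA, and 16.2 in wild-type polysomal against 64.2 in wild-type total mRNA, log2 ratios of -1.69 and -1.95.

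The morphant and wild-type ratios come from separate libraries. Of 71 members above the floor in both conditions, 64 were on the same side of 0 in both with the deposited scaling. The same share over all genes was not computed, and 72.1% of them in the morphant and 69.8% in wild type were below 0. The side of 0 depends on scaling: members below 0 were 27 in the morphant and 28 in wild type, and 36 and 42 without the 50 most abundant genes. The median absolute difference between conditions was 0.15 and the largest 0.65, for SRSF1 (ENSDARG00000017843).

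Ratios were higher, at the median, for members with a short gene model, with exceptions either way. PRPF6, with a model of 798 bases, had log2 ratios of 0.33 in the morphant and -0.08 in wild type, and the SRSF3 copy ENSDARG00000059360, with 6585 bases, had 0.73 and 1.03. These are lengths of annotated models, and the lengths of the mRNAs themselves were not measured. The model length behind each RPKM value was recovered with the reads, and polysomal over total mRNA went down with it over 68 members in the morphant (Spearman's rho -0.70, Pearson's r with log2 length -0.64) and 69 in wild type (rho -0.67, r -0.61). Over all genes the relation was weaker, with a rho of -0.18 over 11731 genes in the morphant and -0.15 over 11852 in wild type. These correlations run across genes that share both libraries, and genes are not independent replicates. Length also follows class, since the median model was 1041 bases for core snRNP genes, 5564 for SR genes and 4092 for hnRNP genes with a value in the morphant. Within classes rho was -0.59 in the morphant and -0.35 in wild type for 20 core snRNP genes, -0.16 and -0.19 for 11 SR genes, and -0.16 and -0.14 for 19 and 20 hnRNP genes.

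Genes of like length did not have the same ratios as the members. Under 1000 bases, 13 members had a median log2 ratio of 1.35 in the morphant and 1.42 in wild type, where all genes of that length had -0.44 and -0.51. Of these 13, 10 were core snRNP genes, 2 U2-associated and 1 a PRPF gene. From 4000 bases, 23 members in the morphant and 24 in wild type had medians of -0.47 and -0.33, where all genes had -1.0 and -0.98. Set against the median of all genes in the same of 4 length ranges, core snRNP genes were higher by a median of 1.66 in the morphant and 1.75 in wild type, with 19 of 20 above it in each. SR genes were higher by 0.94 and 0.90, and hnRNP genes by 0.46 and 0.69. From 1000 to 2000 bases all genes had -0.26 in the morphant and -0.30 in wild type, higher than under 1000 bases. Among 6 core snRNP genes of 1000 to 2000 bases the median was 1.38 in the morphant and 1.51 in wild type. For 3 SR genes of that length it was 0.49 and 0.78, and for 3 hnRNP genes 0.26 and 0.55. The medians of all genes in each length range also include genes above the floor through total mRNA alone, which lie below 0. The part of length or of other properties of the mRNA in the class differences was not tested.

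**Figure D2:**
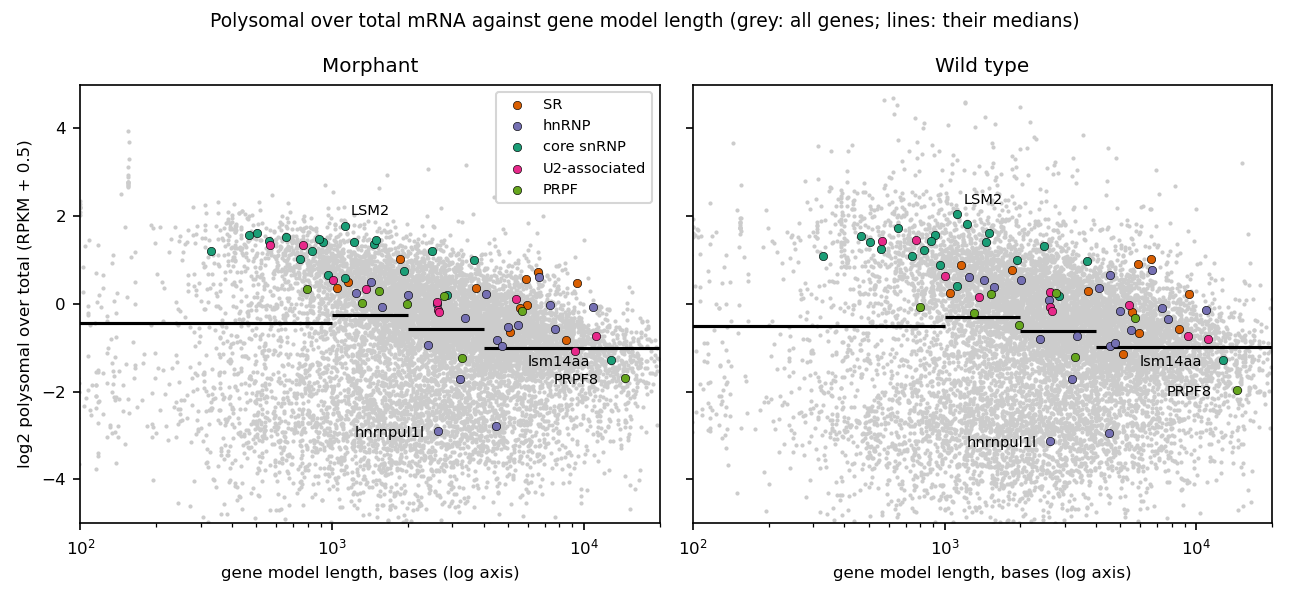
Log2 polysomal over total RPKM (after adding 0.5) against the gene model length in bases on a log axis, for the morphant (left) and wild type (right), with all genes above the floor in grey and members coloured by class. Black lines are medians of all genes in 4 length ranges. Core snRNP genes gather at short lengths and high ratios around 1.29, and PRPF8, lsm14aa and hnrnpul1l lie at -1 or below.

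In total mRNA the splicing genes were slightly lower in the morphant as a group, and none above the floor differed by 2-fold. The median log2 ratio of morphant over wild type was -0.19 over 71 members above the floor, 57 of them below 0, where the median of all genes was -0.02 and 52.4% of them were below 0. No member above the floor passed 2-fold in either direction, where 2.11% of 12154 genes did, 1.43% higher and 0.675% lower. Under the floor, hnrnpa3 was at -1.16, with 0.892 RPKM in morphant total against 2.6 in wild-type total mRNA. Counting intervals lay wholly below 0 for 48, wholly above 0 for 10 and across 0 for 10 of the 68 members with reads, where 31.3% of all genes lay below 0 and 28% above. The class medians were -0.19 for SR, -0.19 for hnRNP, -0.17 for core snRNP, -0.18 for U2-associated and -0.27 for PRPF genes, so SR and hnRNP genes were within 0.02 of core snRNP genes. These directions held under the 4 scalings, with the members' median between -0.20 and -0.17.

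Within the core snRNP class the medians of the snrp and LSM genes differed, and their ranges overlapped. The 10 snrp genes were all below 0 with a median of -0.24, and their 10 counting intervals left out 0. The 10 LSM genes above the floor had a median of 0.03, with 6 above 0. Their counting intervals lay above 0 for 3, below 0 for 2 and across 0 for 5. Over all genes 31.3% of intervals lay below 0 and 28% above. SNRPB had 288 RPKM in morphant total against 387 in wild-type total mRNA, a log2 ratio of -0.43 (-0.48 to -0.38). SNRPE had 141 in morphant total against 180.1 in wild-type total mRNA, a log2 ratio of -0.35 (-0.44 to -0.26). LSM6 was the highest core snRNP gene, with 30.1 RPKM in morphant total against 26.2 in wild-type total mRNA, a log2 ratio of 0.20 (0.05 to 0.34). LSM8 was lowest of the LSM genes, at -0.33 (-0.47 to -0.20).

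The SR genes held the widest range in total mRNA. SRSF1 (ENSDARG00000017843) had 10.4 RPKM in morphant total against 20.3 in wild-type total mRNA, which at -0.94 (-1.06 to -0.87) was the lowest ratio of all members above the floor and just short of 2-fold. SRSF9, which binds purine-rich enhancers as SRSF1 does, had 14.6 in morphant total against 22.4 in wild-type total mRNA, a log2 ratio of -0.60 (-0.72 to -0.51). SRSF5 (ENSDARG00000027734) went the other way, with 28.8 RPKM in morphant total against 22.5 in wild-type total mRNA, a log2 ratio of 0.35 (0.30 to 0.42) and the highest of all members.

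Of the hnRNP genes, HNRNPA1L2 (ENSDARG00000036675), of the hnRNP A1 family that represses splice sites, had 209 RPKM in morphant total against 359 in wild-type total mRNA, a log2 ratio of -0.78. The abundant hnrnpa0l had a log2 ratio of -0.55 (-0.57 to -0.52), and its relatives hnrnpa0a and hnrnpa0b had 0.09 (0.06 to 0.12) and -0.08 (-0.11 to -0.05). Members of 1 family thus differed in direction. HNRNPD (ENSDARG00000059246), also called AUF1, which binds AU-rich elements of unstable mRNAs, had 17.6 in morphant total against 14 in wild-type total mRNA, a log2 ratio of 0.32 (0.24 to 0.43). Its relative HNRNPDL had 57.7 in morphant total against 48 in wild-type total mRNA, a ratio of 0.26 (0.21 to 0.32), so both were higher in the morphant.

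Of the U2-associated genes SF3A2, the SF3a subunit with a zinc finger, was lowest with 31.5 RPKM in morphant total against 42.1 in wild-type total mRNA, a log2 ratio of -0.41 (-0.51 to -0.33). SF3B4 followed at -0.39 (-0.48 to -0.31), and SF3B1 alone of the 10 was above 0, at 0.08 (0.04 to 0.12). The 8 PRPF genes above the floor were all below 0, down to -0.31 for PRPF31 (-0.44 to -0.21), a U4/U6 protein. Their intervals lay below 0 in 8 of 8, where 31.3% of all genes' intervals did.

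In polysomal mRNA the members again lay below all genes. The median log2 ratio of morphant over wild type was -0.17 over 72 members, where the median of all genes was -0.01. Of the 72, 56 were below 0, where 51.1% of all genes were. That direction depends on scaling: without the 50 most abundant genes in the totals the members' median was 0.05, and that of all genes moved to 0.20. Under that scaling 30 of 72 members were below 0, where 31.3% of all genes were. The members stood 0.15 to 0.16 below all genes under the 4 scalings, a gap that a scaling can hardly move. Both members past 2-fold were lower in the morphant and were hnRNP genes, where 5.87% of 8261 genes passed, 1.76% higher and 4.12% lower. HNRNPA1L2 had 172 RPKM in morphant polysomal against 387 in wild-type polysomal mRNA, a log2 ratio of -1.17. The other was hnrnpa3, at -1.69 with the pseudocount, which was above the floor through wild-type polysomal mRNA alone. Its read ratio without the pseudocount was -2.11 (-2.45 to -1.79). Without the 50 most abundant genes in the totals hnrnpa3 was the 1 member past 2-fold, and HNRNPA1L2 was at -0.94.

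The medians by class in polysomal mRNA were -0.13 for SR, -0.24 for hnRNP, -0.17 for core snRNP, -0.24 for U2-associated and -0.03 for PRPF genes, and without the 50 most abundant genes 0.10, -0.01, 0.05, -0.02 and 0.20. The order of classes was the same, since a scaling shifts all classes nearly alike. The SR median was 0.04 above and the hnRNP median 0.07 below that of core snRNP genes. Below HNRNPA1L2 in size came hnrnpr (ENSDARG00000014569), with 43.8 RPKM in morphant polysomal against 76.7 in wild-type polysomal mRNA, a log2 ratio of -0.80 (-0.92 to -0.70). Then came hnrnpa1a (ENSDARG00000011020), with 295 RPKM in morphant polysomal against 479.5 in wild-type polysomal mRNA, a log2 ratio of -0.70 (-0.74 to -0.66). The SR gene srsf10b (ENSDARG00000086411), whose human orthologue represses splicing when dephosphorylated, had 84.7 in morphant polysomal against 138 in wild-type polysomal mRNA, a log2 ratio of -0.70 (-0.79 to -0.62). SNRPB had 459 in morphant polysomal against 719 in wild-type polysomal mRNA, a log2 ratio of -0.65 (-0.69 to -0.61). These 4 were lower in the morphant in total mRNA as well, at -0.44, -0.23, -0.31 and -0.43. The highest ratios were those of SRSF6 (ENSDARG00000016783), PRPF19 and SRSF3 (ENSDARG00000025397), at 0.32 (0.25 to 0.41), 0.28 (0.22 to 0.35) and 0.20 (0.14 to 0.26). Of 71 members above the floor in the total and polysomal comparisons, 45 were below 0 in both fractions, where 32.6% of 7546 genes were. Without the 50 most abundant genes it was 27 members, where 19.7% of all genes were.

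**Figure D3:**
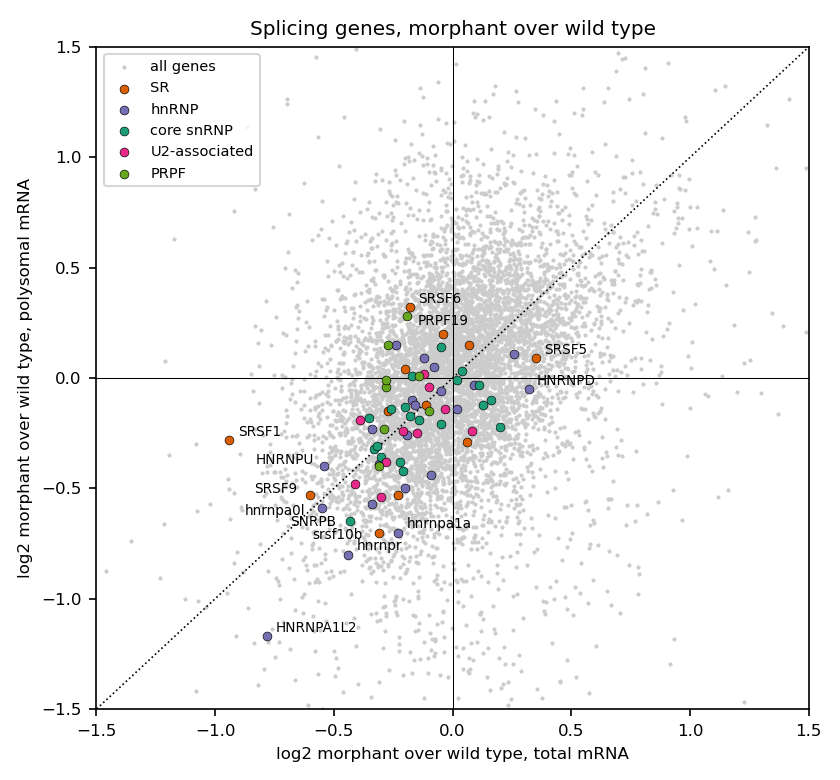
Log2 morphant over wild type (RPKM + 0.5) in total mRNA (x axis) and in polysomal mRNA (y axis) for all genes above the floor of the polysomal minus total comparison in grey and for 71 members coloured by class. The dotted line marks equal ratios, and genes beyond 1.5 on either axis are not drawn. Of the members, 45 lie at the lower left, HNRNPA1L2 is farthest down and SRSF1 (ENSDARG00000017843) farthest left; without the 50 most abundant genes in the totals the members' polysomal median is 0.05 and not -0.17.

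The difference between the polysomal and the total log2 ratio (polysomal minus total) asks whether a transcript's place on polysomes differed beyond its level. For the members its median was -0.03 over 71 genes, where all genes had a median of -0.00, and without the 50 most abundant genes 0.17 where all genes had 0.19. No member passed 2-fold, where 4.69% of 7546 genes did, 1.62% higher and 3.07% lower. The class medians were 0.08 for SR, -0.07 for hnRNP, -0.04 for core snRNP, -0.08 for U2-associated and 0.19 for PRPF genes, and without the 50 most abundant genes 0.28, 0.13, 0.17, 0.12 and 0.39. The SR median was 0.12 above and the hnRNP median 0.04 below that of core snRNP genes. Counting intervals lay below 0 for 23, above 0 for 19 and across 0 for 26 of 68 members, where 28.7% of all genes lay below 0 and 28.4% above.

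The highest differences were those of SRSF1 (ENSDARG00000017843) at 0.65 (0.53 to 0.82), SRSF6 (ENSDARG00000016783) at 0.50 (0.42 to 0.60) and PRPF19 at 0.48 (0.39 to 0.57). SRSF1 had 10.2 RPKM in morphant polysomal and 12.6 in wild-type polysomal mRNA, so the polysomal levels were nearer to each other than the total levels of 10.4 in morphant and 20.3 in wild-type embryos. PRPF19 was higher in the morphant in polysomal mRNA, with 114 RPKM against 93.4 in wild type, and lower in total mRNA, with 113 against 129.5. PRPF6, the U5 protein that bridges to U4/U6, and PRPF8 followed among PRPF genes at 0.42 (0.23 to 0.61) and 0.26 (0.20 to 0.33). Above 0 were 6 of 8 PRPF genes, where 49.5% of all genes were. Without the 50 most abundant genes it was 8 of 8, where 69.3% of all genes were above 0. The lowest differences were -0.47 (-0.52 to -0.42) for hnrnpa1a, -0.42 (-0.59 to -0.26) for LSM6, -0.39 for HNRNPA1L2 and -0.39 (-0.52 to -0.27) for srsf10b. For LSM6 the level was 80.4 RPKM in morphant polysomal and 94 in wild-type polysomal mRNA, and 30.1 in morphant total and 26.2 in wild-type total mRNA, lower in the morphant on polysomes and higher in total mRNA, though without the 50 most abundant genes its polysomal ratio was 0.00. The core snRNP genes as a class lay between -0.42 for LSM6 and 0.19 for LSM3.

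Copies of 1 gene did not always have like ratios. The SRSF1 gene ENSDARG00000057691 had 195 RPKM in morphant polysomal, 212 in wild-type polysomal, 116 in morphant total and 125.5 in wild-type total mRNA. Its copy ENSDARG00000017843 was lower by 19.1-fold, 16.8-fold, 11.2-fold and 6.18-fold in the same libraries. Morphant over wild type in total mRNA was -0.11 for ENSDARG00000057691, the abundant copy, and -0.94 for ENSDARG00000017843. Thus the ratio of -0.94 concerns the minor copy, and the ratio of the summed SRSF1 mRNA was not computed. SRSF6 copies also differed on polysomes. ENSDARG00000013729 had a polysomal log2 ratio of -0.15 (-0.24 to -0.06), and ENSDARG00000016783 one of 0.32 (0.25 to 0.41). SRSF3 copies had 0.20 (0.14 to 0.26) for ENSDARG00000025397 and -0.53 (-0.58 to -0.48) for ENSDARG00000059360, on opposite sides of 0 under the 4 scalings. For SRSF6 the copies were on opposite sides under 3 of the 4, since without the 50 most abundant genes the ratio of SRSF6 ENSDARG00000013729 was above 0.

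Paired copies differed in polysomal over total mRNA too. srsf5a (ENSDARG00000029818) had log2 ratios of 0.56 in the morphant and 0.91 in wild type, while SRSF5 (ENSDARG00000027734) had -0.82 and -0.56. HNRNPU (ENSDARG00000004735) had -0.95 and -0.88, far above the -2.79 and -2.93 of ENSDARG00000015206, so the abundant copy exceeded the minor one by 18.2-fold in morphant polysomal, 17.6-fold in wild-type polysomal, 4.55-fold in morphant total and 3.87-fold in wild-type total mRNA. In the hnRNP A1 pair hnrnpa1a was 1.5-fold HNRNPA1L2 in morphant total mRNA and 1.02-fold in wild-type total mRNA. In polysomal mRNA the ratio was 1.71-fold in the morphant and 1.24-fold in wild type. Both copies were lower in the morphant in both fractions.

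**Figure D4:**
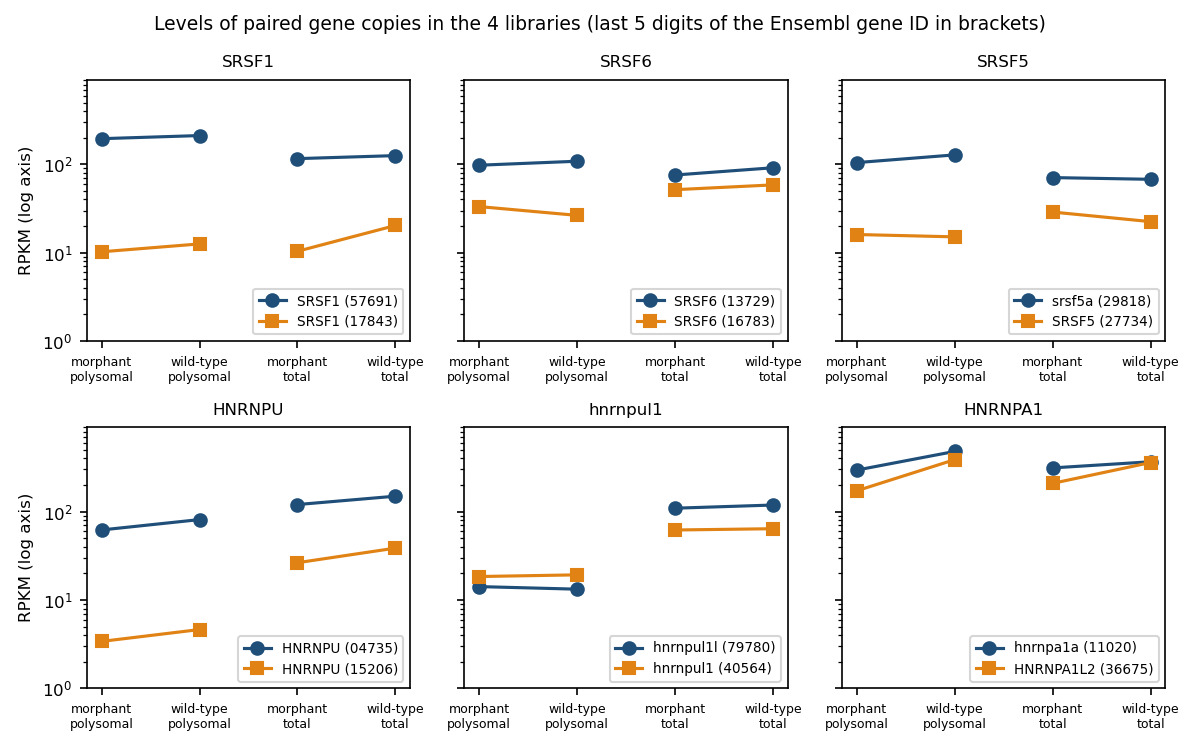
RPKM on a log axis of 6 pairs of related genes in morphant polysomal, wild-type polysomal, morphant total and wild-type total mRNA, with the last 5 digits of the Ensembl identifier in the legend and lines joining the morphant to the wild-type library of a fraction. The lower HNRNPU copy stands at 3.4 RPKM in morphant and 4.62 in wild-type polysomal mRNA, while both hnRNP A1 genes stay above 100 RPKM.

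Other genes of the splicing pathway had a like median in total mRNA. Of 53 genes of other spliceosome proteins 52 were above the floor in morphant over wild-type total mRNA, with a median of -0.17. Of these 52, 45 were below 0 and none past 2-fold, where 52.4% and 2.11% of all genes were. The list's medians were -0.10 in polysomal mRNA (50 genes) and 0.01 in polysomal minus total, and without the 50 most abundant genes 0.13 and 0.21. In polysomal over total mRNA the median was -0.25 in each condition, where all genes had -0.70 in the morphant and -0.71 in wild type. With upper-quartile scaling it was 0.22 in the morphant and 0.20 in wild type, where all genes had -0.24 and -0.28. Without the 50 most abundant genes it was -0.48 and -0.68, where all genes had -0.92 and -1.11. AQR, an intron-binding helicase, was lowest with 8.74 RPKM in morphant total against 14.9 in wild-type total mRNA, a log2 ratio of -0.74. wbp4, a WW-domain protein of the spliceosome, had the widest polysomal minus total difference of the list. It had 4.2 RPKM in morphant polysomal, 2.31 in wild-type polysomal, 10.4 in morphant total and 17.1 in wild-type total mRNA, a difference of 1.43, and was above the polysomal floor through morphant polysomal mRNA alone. PHF5A, a small SF3b subunit, had a polysomal over total ratio of 1.66 in the morphant and 1.93 in wild type, as SF3B5 and SF3B6 did.

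Of 41 genes of SR-like proteins and tissue-specific splicing regulators, 31 were above the floor in total mRNA. Their median was -0.17 and 23 were below 0, where 52.4% of all genes were. In polysomal mRNA 28 were above the floor, with a median of -0.18 (0.05 without the 50 most abundant genes). Of these 28, 1 was past 2-fold lower, where 4.12% of all genes were. That gene was RBFOX1, a neuronal and muscle splicing regulator, with 1.77 RPKM in morphant polysomal against 5.25 in wild-type polysomal mRNA, a log2 ratio of -1.34, and it was above the floor through wild-type polysomal mRNA alone. None of the 26 genes at the floor in both polysomal libraries passed 2-fold. In polysomal minus total mRNA the list's median was 0.00 over 27 genes, 14 above 0 and 13 below, where 49.5% of all genes were above. Without the 50 most abundant genes the median was 0.21, where all genes had 0.19. Both PTBP1 genes, polypyrimidine-tract binding repressors, were higher in the morphant in that difference, at 0.59 and 0.51. The CLK2 genes ENSDARG00000062954 and ENSDARG00000059870 were lower, at -0.55 and -0.40. The list differed from the members in polysomal over total mRNA, with medians of -0.60 in the morphant and -0.56 in wild type. The neural regulator NOVA1 (ENSDARG00000017673) had 0.384 RPKM in morphant polysomal against 45.5 in morphant total mRNA, and 1.03 in wild-type polysomal against 64.5 in wild-type total mRNA. Its ratios were -5.70 and -5.41.

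The 14 genes found of snRNP assembly, the SMN complex and its import partners, had a median of -0.06 in total mRNA. In polysomal mRNA 12 were above the floor, with a median of 0.04. Without the 50 most abundant genes that median was 0.25, where all genes had 0.20. They thus stood nearer to all genes than the Sm genes did. None passed 2-fold, where 2.11% of all genes in total and 5.87% in polysomal mRNA did. smn1, the gene of the assembly factor SMN, had 8.81 RPKM in morphant total against 9.79 in wild-type total mRNA, a log2 ratio of -0.14. STRAP, an SMN partner, had 29 RPKM in morphant total against 23.7 in wild-type total mRNA, a ratio of 0.29. In polysomal over total mRNA the list's medians were -0.22 in the morphant and -0.13 in wild type. In each condition 8 of 14 were below 0, where 72.1% and 69.8% of all genes were. GEMIN7, a small subunit of the complex, had polysomal over total ratios of 1.54 in the morphant and 1.65 in wild type. XPO1, the gene of the list farthest from 0, had -2.57 and -2.89.

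Most markers of dividing cells and of the nervous system also had ratios below 0 in total mRNA, and none of them passed 2-fold. Of all genes 52.4% were below 0 and 2.11% passed 2-fold in that comparison. Of 21 cell cycle genes above the floor 20 were below 0, with a median log2 ratio of -0.41 and a summed level of 1621 RPKM in morphant total against 2093 in wild-type total mRNA. All 12 neural progenitor markers were above the floor, with a median of -0.29, 10 of them below 0, and a summed 500 RPKM in morphant total against 635 in wild-type total mRNA. Of 15 neuron marker rows 11 were above the floor, with a median of -0.32, 8 of them below 0, and a summed 178 RPKM in morphant total against 248 in wild-type total mRNA. Genes of the p53 response went the other way, with a median of 2.27 over 13 genes, 10 of them past 2-fold higher, where 1.43% of all genes were, and a summed 1358 RPKM in morphant total against 340 in wild-type total mRNA. Of the 13, cdkn1a and bbc3 were above the floor through morphant total mRNA alone, and the other 11 had a median of 1.86 with 8 past 2-fold. Muscle markers had a median of 0.63 over 15 genes and a summed 3628 RPKM in morphant total against 2472 in wild-type total mRNA, and lens markers 0.05 over 4 genes and a summed 32 RPKM in morphant total against 30 in wild-type total mRNA. No gene of these lists was without reads in all 4 libraries. In polysomal mRNA cell cycle genes summed to 1347 RPKM in the morphant against 1556 in wild type, neural progenitor markers to 443 in the morphant against 519 in wild type, and p53 response genes to 936 in the morphant against 447 in wild type. The medians of the cell cycle and neural progenitor lists in polysomal mRNA were -0.15 each, and 0.07 each without the 50 most abundant genes. In the same libraries muscle markers summed to 6852 RPKM in the morphant against 13546 in wild type, neuron markers to 129 in the morphant against 290 in wild type, and lens markers to 55 in the morphant against 327 in wild type. The part of dividing, neural or other cells in the lower splicing gene levels was not tested.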

How the data were processed

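Polyadenylated mRNA from polysomal fractions and from whole embryos was read as single reads of 36 bases, 1 library per group, per the labels. The authors deposited 1 RPKM value for each of 32313 Ensembl genes in each library, per the file headers. Zv9 is the genome build per the submitters' processing notes. Neither aligner nor counter nor annotation version is given in the sources used here. Symbols were joined by Ensembl identifier for 20499 genes. Of the 77 members 58 have symbols in capitals, which are orthologue-type names. No coordinates or sequences were used here.

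Deposited values move in steps of whole reads plus 1, so a gene without reads has a value above 0. Reads and model lengths were recovered for 99.2% of genes, and for 98.2% of 12590 genes of at least 3 RPKM. The anchor, the most frequent value as 1 step of a 107-base model, gave whole lengths for 99.9% of genes with 1 step in all libraries, against 24.2% for the next best length. One read in a 1 kb model is worth 0.0455 RPKM in morphant polysomal, 0.0634 in wild-type polysomal, 0.0476 in morphant total and 0.0401 in wild-type total mRNA.

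Ratios used a pseudocount of 0.5 and a floor of 3 RPKM in at least 1 library compared. Polysomal minus total needed 3 RPKM in both total libraries and in 1 polysomal library. Medians, counts past 2-fold and class differences were computed on all genes and on members. Named members are, per class, the 4 farthest from 0 in each morphant over wild-type comparison, those past 2-fold, the 3 highest and 3 lowest in polysomal over total and the 3 most abundant, of which not all are printed. SRSF1 ENSDARG00000057691, LSM1, SNRPD3 copies and other partners of complexes or copies were added after their values were seen. From lists of other splicing genes, snRNP assembly, cell cycle, p53 response and neural, muscle and lens markers, counts and medians are given with the genes farthest from 0. To these smn1, PHF5A, bbc3, GEMIN7, a PTBP1 copy and a CLK2 copy were added after their values were seen. Members and lists were chosen with earlier results of these data known. Values of 1 member gene are not reported here by name.

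Alternatives were 3 other scalings, folds of 1.5 and 4, a floor of 12 RPKM, a floor on the mean over libraries, no floor, a pseudocount of 1, means for medians and a requirement on the counting interval. The scripts were tested on simulated data. Computation used NumPy 2.4.6 and SciPy 1.17.1 with pandas 2.3.3 in Python 3.11.15, and figures Matplotlib 3.10.9.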

Additional observations from a re-analysis of the deposited data

Results flagged for a closer look

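In 10 of 68 members with reads the polysomal and total ratios of morphant over wild type pointed opposite ways, each with a counting interval that left out 0, and 12% of 7364 genes did the same, so the members' count is near that of all genes. The polysomal intervals are too narrow, since low counts in that pair spread more widely than counting gives. With 1 library per group these differences were not tested against replicate spread. The difference of the log2 ratios, polysomal minus total, was 0.48 for PRPF19, 0.50 for SRSF6 (ENSDARG00000016783), 0.42 for PRPF6, 0.39 for hnrnpl2 and 0.12 for hnrnpa0b, which were higher in the morphant on polysomes and lower in total mRNA. It was -0.42 for LSM6, -0.35 for srsf5a, -0.33 for SF3B1, -0.26 for LSM2 and -0.25 for LSM12, which were lower on polysomes and higher in total mRNA. Without the 50 most abundant genes in the scaling 7 of the 10 kept opposite signs, and LSM6, LSM2 and LSM12 did not.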

How the results depend on the processing

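With 1 library per group, no result has a replicate check, and counting intervals, which are too narrow in polysomal mRNA, limit single genes. No paired analysis was possible because each group has 1 library and every replicate number is 1. Relative to the libraries' summed RPKM without the 50 most abundant genes, the members' median became 0.05 in polysomal mRNA, 0.17 in polysomal minus total, -0.02 in polysomal over total in the morphant and -0.19 in wild type, and 1 member passed 2-fold in polysomal mRNA. In polysomal over total mRNA median-of-ratios scaling gave medians of 0.38 in the morphant and 0.40 in wild type, and upper-quartile scaling 0.71 in the morphant and 0.71 in wild type. At 1.5-fold 3 members passed in total mRNA, 7 in polysomal mRNA, 1 in polysomal minus total and 43 in wild-type polysomal over total mRNA, where 9.85%, 18.9%, 15.6% and 70.8% of all genes did. At 4-fold 0 passed in polysomal mRNA, 2 in morphant and 3 in wild-type polysomal over total mRNA, where 0.956%, 22.6% and 26.9% of all genes did. Requiring also a counting interval that leaves out 0 left 1 member in polysomal mRNA, since HNRNPA1L2 has no recovered reads. The hnRNP minus core snRNP difference in polysomal mRNA was 0.04 with a floor of 12 RPKM and -0.17 with means in place of medians. With means, the wild-type polysomal over total differences were -0.92 for SR minus core snRNP and -1.51 for hnRNP minus core snRNP. Of 357 values of single genes, 0 moved beyond the counting half-width with a pseudocount of 1, 131 with median-of-ratios scaling, 147 with upper-quartile scaling and 275 without the 50 most abundant genes.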
